A study of Mus musculus with 36 samples.

Results

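Receptors for the myeloid growth factors set how many monocytes, macrophages and granulocytes a tissue makes, keeps alive and activates. The 9 genes described here are Csf2ra, Csf2rb, Csf2rb2, Il3ra, Csf1r, Csf3r, Flt3 and Kit, which encode receptor chains, and Csf1, which encodes the ligand of Csf1r. They were taken from a list of gene symbols, and all 9 were found among the 55291 genes of the count table and passed the filter on low counts. Csf2ra was chosen by its own counts, which differ between these same groups, so its values are given as a description without a test.

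Messenger RNA was measured in mouse knee joint tissue as total RNA depleted of ribosomal RNA. In the inhibitor group, mice with an injured anterior cruciate ligament (ACL, which holds the shin bone in place under the thigh bone) were treated with an inhibitor of protein kinase C (PKC, kinases that respond to diacylglycerol and calcium). The vehicle group had the same ACL injury and received saline, and the sham group had no ACL injury. All tissue was taken 24 h after the injury or the sham procedure, from 3 biological replicates a group. The labels name neither the inhibitor compound nor its dose, and they give no strain, sex or age, nor say whether a replicate pooled animals. The comparison of inhibitor with vehicle asks which genes differ when PKC is inhibited after injury, and the comparison of vehicle with sham asks which differ after injury. The 3 comparisons share libraries pairwise and are not independent of each other.

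In mice the receptor for the cytokine GM-CSF pairs a ligand-binding alpha chain, Csf2ra, with the common beta chain, Csf2rb, which carries the signal through the kinase JAK2 and the transcription factor STAT5. The common beta chain also serves the receptors for interleukin 3 (IL-3), with Il3ra as alpha chain, and for interleukin 5. Mice have an additional beta chain, Csf2rb2, that serves IL-3 alone. Csf1r, the tyrosine kinase receptor for CSF1 and interleukin 34, maintains macrophages and osteoclasts. Csf3r binds G-CSF and drives the formation and release of neutrophils. Flt3 acts in early progenitors and dendritic cells, and Kit, the receptor for stem cell factor, acts in blood progenitors and mast cells. GM-CSF and CSF1 signalling are both known in inflamed joints.

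The genes lie apart in the genome except for the beta chains. On mm10, Csf2rb (chromosome 15, 78325752 to 78353847, plus strand) and Csf2rb2 (chromosome 15, 78282507 to 78305721, minus strand) are neighbours on opposite strands. On its own strand Csf2rb overlaps the gene Mir7676-2 and Csf2rb2 overlaps Mir7676-1, so counts where they overlap are uncertain. Csf2ra spans 61223957 to 61228429 on chromosome 19 (minus strand), and Il3ra spans 14346275 to 14356011 on chromosome 14 (plus strand), where it overlaps the model Gm48860 on the other strand. Csf1 spans 107741048 to 107760469 on chromosome 3 (minus strand) and Csf3r spans 126024550 to 126044440 on chromosome 4 (plus strand). Flt3 (147330741 to 147400489, minus strand) and Kit (75574916 to 75656722, plus strand) both lie on chromosome 5. All 9 are protein-coding genes, and counts were summed over their exons.

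The beta chains are near-identical copies, which bears on every value of Csf2rb and Csf2rb2. Their GENCODE M21 coding sequences have 2688 and 2634 bases, and 2503 of 2628 aligned bases were identical (95.2%), with a longest identical run of 242 bases. A stretch of 100 bases, the length of a read, is shown from bases 1765 to 1864 of both coding sequences, counted from the start codon. It was picked because its number of differing bases, 3, was the median of 215 such windows, which held 0 to 17. Capitals mark the bases that differ.
Csf2rb: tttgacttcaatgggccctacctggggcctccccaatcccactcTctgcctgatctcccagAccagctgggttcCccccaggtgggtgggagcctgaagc
Csf2rb2: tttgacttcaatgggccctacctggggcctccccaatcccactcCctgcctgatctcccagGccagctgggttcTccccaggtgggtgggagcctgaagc
Of all 100-base words in the transcripts, 4.63% of those of Csf2rb and 6.82% of those of Csf2rb2 occurred without a change in another gene. Reads that fit several places were counted at each of them, so counts of the beta chains are uncertain where they share sequence. Csf3r shared 0.376% of its words with another gene, and the other 6 genes shared none.

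The libraries held 124 to 202 M counts each, of which 91.2% to 98.2% fell on 7SL genes, whose RNA is part of the signal recognition particle. A read that fits several 7SL genes was counted at each, so these are shares of counts and not of reads. Inhibitor libraries 1 and 2 stood apart, with 91.5% and 91.2% on 7SL genes, against 98.2% in inhibitor library 3, 96.7% to 98.1% with vehicle and 97.0% to 97.2% in sham knees. Counts outside the 7SL genes ran from 3.28 M in vehicle library 1 to 11.9 M in inhibitor library 1. Counts on protein-coding genes ran from 1.11 M in sham library 3 to 4.57 M in inhibitor library 2, with 2.55 M in inhibitor library 1. Sham library 1 had 1177819 counts on the gene Nemf alone, against 45 to 195 elsewhere. Low counts limited the precision of the receptors: Csf2ra had 123 to 458 counts a library, Kit 13 to 37, Il3ra 9 to 49 and Flt3 only 3 to 15. Every gene of a list of 8 cartilage, bone and synovium markers was counted in every library. The same held for 10 skeletal muscle markers and 13 neutrophil markers, so these counts do not establish the tissue.

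Csf2ra, the GM-CSF-binding alpha chain, was the gene of the list that differed most between inhibitor and vehicle knees. Its normalised counts (counts scaled to a common library size) were 92.3, 148 and 222 in inhibitor libraries 1 to 3, against 419, 544 and 471 with vehicle and 501, 341 and 649 in sham knees. The highest inhibitor library lay below the lowest vehicle and the lowest sham library. Before scaling, inhibitor library 2 had 379 counts, within the vehicle range of 252 to 458. In that library 1 normalised count stood for 2.57 raw counts. The mean was 154 ± 65.1 with the inhibitor and 478 ± 63.2 with vehicle (SD, n = 3 each), a log2 fold change of -1.65, or 3.13-fold lower. Sham knees averaged 497 ± 154, and inhibitor knees were 3.25-fold lower than sham knees (log2 fold change -1.70). Vehicle knees differed little from sham knees, with a log2 fold change of -0.05 and overlapping groups.

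Inhibitor library 3 had a 7SL share like that of the vehicle and sham libraries. Its Csf2ra, at 222, was the highest of its group and lay below that of all 6 vehicle and sham libraries. The part of library make-up in the lower Csf2ra was not tested. With inhibitor libraries 1 and 2 left out, the log2 fold change of Csf2ra was -1.11 against vehicle and -1.15 against sham, each resting on 1 inhibitor library. In joint tissue made of many cell types, a lower count can come from fewer cells that make an RNA or from less of it in each cell, and bulk libraries cannot tell these apart. The same holds for every gene below.

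**Figure D1:**
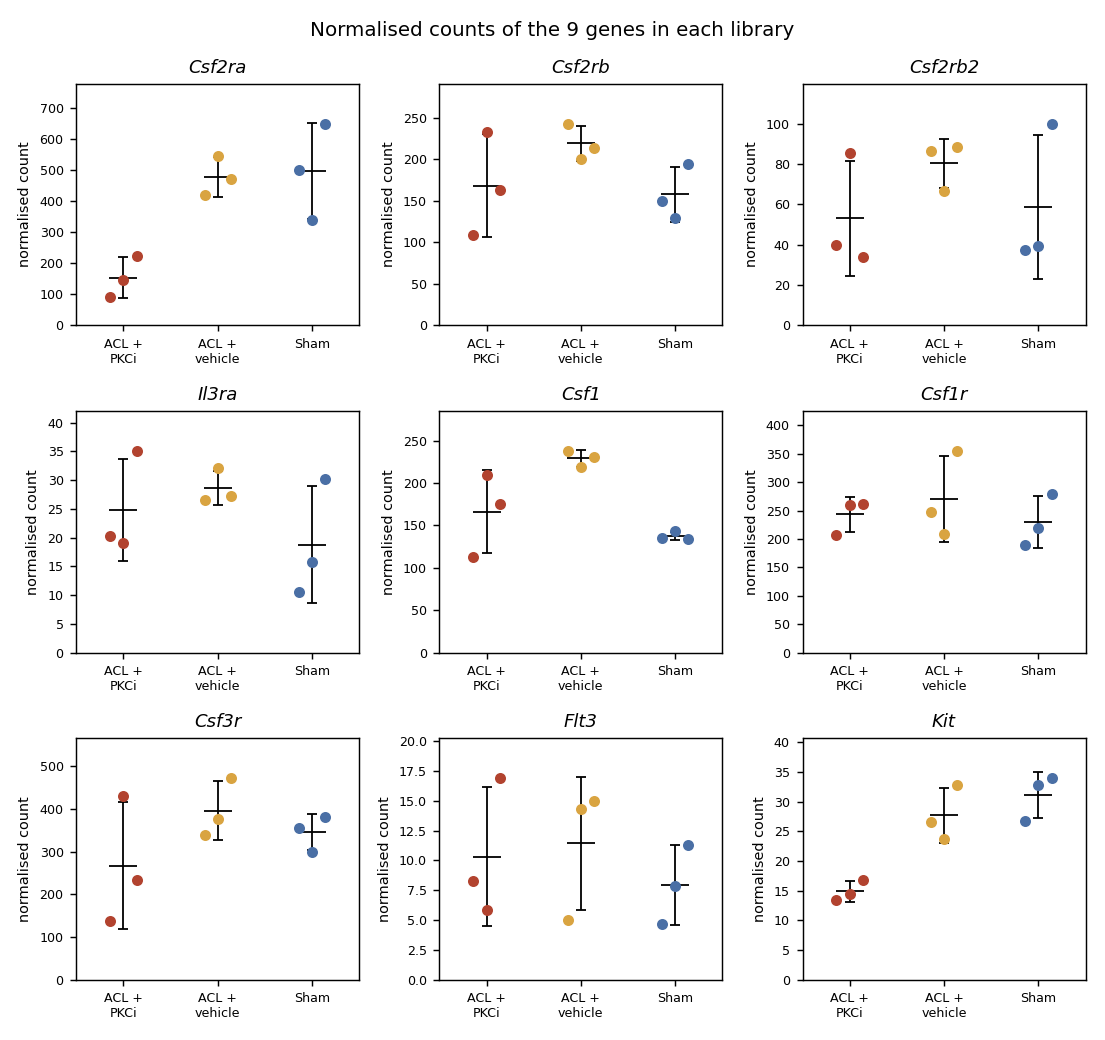
Normalised counts (vertical axis, linear, from 0, own scale per panel) of the 9 genes in each library of the inhibitor, vehicle and sham groups. Points are libraries 1 to 3 from left to right, the wide bar is the group mean and the error bar is 1 SD. The 3 inhibitor libraries lie below all others for Csf2ra (92.3 to 222, against 341 or more elsewhere) and for Kit (13.5 to 16.9, against 23.8 or more), and Csf1 is highest in the vehicle libraries (219 to 238).

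Csf2rb, the signalling partner of Csf2ra, had a smaller log2 fold change between inhibitor and vehicle knees, which was not called. Csf2rb had 109, 233 and 164 normalised counts in inhibitor libraries, 243, 201 and 214 in vehicle libraries and 150.0, 129.8 and 194 in sham libraries. The inhibitor libraries spread more widely than the vehicle libraries and overlapped both other groups, while all vehicle libraries lay above all sham libraries. The mean was 168 ± 62.0 with the inhibitor and 219 ± 21.3 with vehicle (SD, n = 3 each), a log2 fold change of -0.37 (SE 0.26, 95% interval -0.92 to 0.18, adjusted p = 0.556). Against the sham mean of 158 ± 33.0, the log2 fold change of Csf2rb was 0.10 for the inhibitor (SE 0.26, adjusted p = 0.874) and 0.48 for vehicle (SE 0.26, 95% interval -0.08 to 1.04, adjusted p = 0.666). None of the 3 passed the threshold of 0.05. Inhibitor libraries 1 and 3 lay below all vehicle libraries, and inhibitor library 2 lay among them. The log2 fold change of Csf2rb against vehicle was -0.71 without inhibitor library 2 (edgeR adjusted p = 0.217). It was -0.12 without inhibitor library 1 (edgeR adjusted p = 0.864).

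Since both chains were read from the same library, their ratio does not depend on how libraries were scaled. Per kilobase of exon, Csf2ra exceeded Csf2rb by 2.15, 1.61 and 3.44 times in the inhibitor libraries, against 4.37, 6.87 and 5.57 times with vehicle and 8.47, 6.66 and 8.47 times in sham knees. All inhibitor ratios lay below all vehicle and sham ratios, while the vehicle and sham ratios overlapped. The mean ratio was 2.40 ± 0.941 with the inhibitor, 5.60 ± 1.25 with vehicle and 7.86 ± 1.05 in sham knees (SD, n = 3 each). The ratio of Csf2ra to Csf3r was 0.840, 0.432 and 1.19 with the inhibitor, 1.55, 1.82 and 1.25 with vehicle and 1.77, 1.43 and 2.14 in sham knees, again without overlap of the inhibitor libraries with the others. These ratios contain the gene chosen for its pattern and were not tested. Csf1r over Csf2rb, a ratio without Csf2ra, overlapped between all groups, at 2.41, 1.41 and 2.02 with the inhibitor, 1.29, 1.31 and 2.09 with vehicle and 1.59, 2.13 and 1.81 in sham knees.

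**Figure D2:**
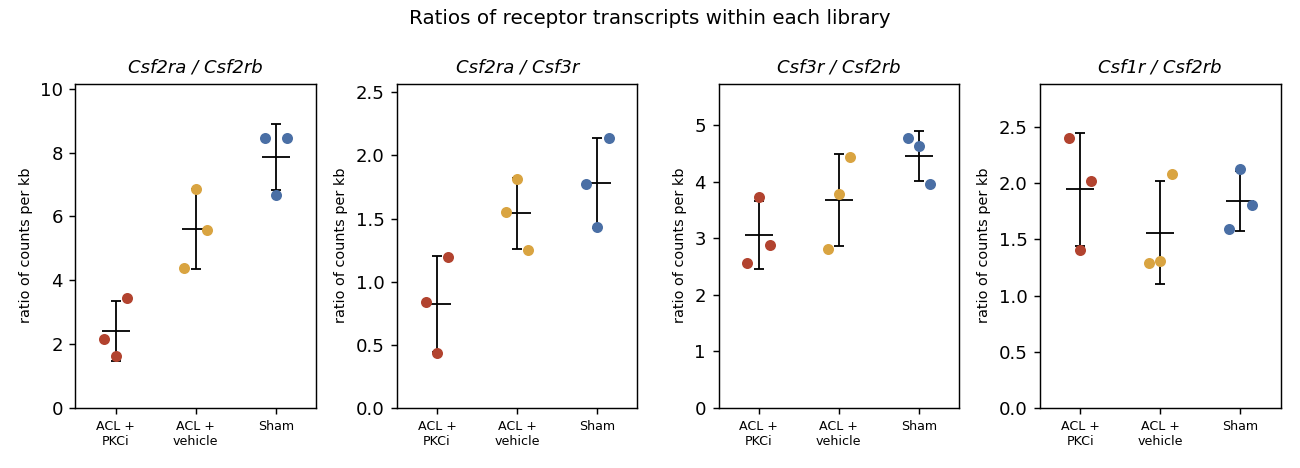
Ratios of receptor levels per kilobase of exon within each library, for the inhibitor, vehicle and sham groups. Points are libraries, the wide bar is the group mean and the error bar is 1 SD. Csf2ra over Csf2rb lies at 1.61 to 3.44 in the inhibitor libraries and at 4.37 or more in the others.

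The other chains of this receptor family were weaker and noisier. Csf2rb2, the beta chain for IL-3, had 39.8, 85.7 and 33.7 normalised counts with the inhibitor, 86.4, 66.6 and 88.7 with vehicle and 37.2, 39.3 and 99.95 in sham knees. A single library was far above the rest in both the inhibitor and the sham group, and all groups overlapped. Its log2 fold change was -0.56 for inhibitor over vehicle (SE 0.41, 95% interval -1.45 to 0.33, adjusted p = 0.584), -0.08 for inhibitor over sham (adjusted p = 0.946) and 0.48 for vehicle over sham (adjusted p = 0.832). Il3ra, the alpha chain for IL-3, had 20.3, 19.1 and 35.0 normalised counts with the inhibitor, 26.6, 32.1 and 27.3 with vehicle and 10.5, 15.7 and 30.2 in sham knees. Its groups overlapped as well, and its log2 fold changes of -0.24, 0.41 and 0.65 for inhibitor over vehicle, inhibitor over sham and vehicle over sham had intervals that all held 0 (adjusted p = 0.859, 0.699 and 0.782).

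Kit, the stem cell factor receptor, was the only other gene whose inhibitor libraries lay below both other groups. It had 13.5, 14.4 and 16.9 normalised counts with the inhibitor, 26.6, 23.8 and 32.7 with vehicle and 26.7, 32.8 and 33.9 in sham knees. The mean was 14.9 ± 1.75 with the inhibitor and 27.7 ± 4.58 with vehicle (SD, n = 3 each), 1.86-fold lower, with a log2 fold change of -0.90 (SE 0.40, 95% interval -1.75 to -0.05). The edgeR p was 0.0400 before adjustment and 0.344 after it. Against the sham mean of 31.2 ± 3.86, inhibitor knees were 2.09-fold lower, with a log2 fold change of -1.06 (SE 0.40, 95% interval -1.91 to -0.21) and an edgeR p of 0.0174 before and 0.164 after adjustment. Neither difference of Kit passed the threshold over all genes tested. Vehicle and sham knees overlapped for Kit, at -0.16 on the log2 scale (SE 0.40; adjusted p = 0.960).

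Csf1, the ligand that sustains macrophages, showed its difference in the injury comparison. It had 113, 210.0 and 175 normalised counts with the inhibitor, 238, 219 and 230.5 with vehicle and 135, 143 and 134 in sham knees. All vehicle libraries lay above all sham and all inhibitor libraries, and the inhibitor libraries overlapped the sham libraries. Vehicle knees averaged 229 ± 9.54 and sham knees 137 ± 4.94 (SD, n = 3 each), 1.67-fold higher with vehicle, with a log2 fold change of 0.74 (SE 0.23, 95% interval 0.25 to 1.23). The edgeR p of Csf1 in that comparison was 0.00569 before and 0.281 after adjustment over all genes, so it was not called. Inhibitor knees averaged 166 ± 49.0, with a log2 fold change of -0.46 against vehicle (SE 0.22, 95% interval -0.94 to 0.02, adjusted p = 0.396) and 0.28 against sham (SE 0.23, adjusted p = 0.565). When only the vehicle and sham libraries were fitted, Csf1 had a log2 fold change of 0.75 and an adjusted p of 0.0439, which is past the threshold.

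Its receptor Csf1r, on chromosome 18 (61100598 to 61132149, plus strand), had no log2 fold change beyond 0.24 in size. Csf1r overlaps the gene Hmgxb3 on the other strand. It had 208, 260.2 and 262 normalised counts with the inhibitor, 248, 209 and 355 with vehicle and 189.5, 219 and 279 in sham knees, and all groups overlapped. The log2 fold change of Csf1r was -0.15 for inhibitor over vehicle (95% interval -0.64 to 0.34, adjusted p = 0.819), 0.09 for inhibitor over sham (-0.40 to 0.58, adjusted p = 0.876) and 0.24 for vehicle over sham (-0.25 to 0.74, adjusted p = 0.851). These intervals leave out a change as large as that of Csf2ra in either direction. The second ligand of Csf1r, Il34, had 12.8, 9.74 and 7.79 normalised counts with the inhibitor, 1.66, 7.13 and 28.6 with vehicle and 5.81, 19.7 and 15.1 in sham knees, with overlap throughout and a smallest adjusted p of 0.837.

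Csf3r, the G-CSF receptor of neutrophils, had 138, 429.7 and 234 normalised counts with the inhibitor, 339, 377 and 472 with vehicle and 356, 299 and 381 in sham knees. Inhibitor libraries 1 and 3 lay below all vehicle and sham libraries, but inhibitor library 2 lay among them. The mean was 267 ± 149 with the inhibitor, 396 ± 68.5 with vehicle and 345 ± 42.0 in sham knees (SD, n = 3 each). The log2 fold change of Csf3r was -0.56 for inhibitor over vehicle (SE 0.33, 95% interval -1.27 to 0.15, adjusted p = 0.493), -0.36 for inhibitor over sham (SE 0.33, adjusted p = 0.617) and 0.20 for vehicle over sham (SE 0.33, adjusted p = 0.929). Against vehicle it was -1.11 without inhibitor library 2 (edgeR adjusted p = 0.0633) and -0.24 without inhibitor library 1 (edgeR adjusted p = 0.732). In a fit with a muscle marker score as covariate, the inhibitor over sham log2 fold change of Csf3r was -0.84 with an edgeR adjusted p of 0.0398. That score came from the same libraries, and the fit called 1173 genes in this comparison, against 546 without the score.

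Flt3, the receptor of early progenitors and dendritic cells, was the lowest of the list. It had 8.25, 5.84 and 16.9 normalised counts with the inhibitor, 4.98, 14.3 and 15.004 with vehicle and 4.65, 7.87 and 11.3 in sham knees, and all groups overlapped. At this depth its log2 fold change of -0.24 for inhibitor over vehicle had a 95% interval of -1.69 to 1.21, which takes in the value of Csf2ra, -1.65, so a difference of that size is not excluded. Its adjusted p was 0.915 in that comparison, 0.848 for inhibitor over sham and 0.894 for vehicle over sham.

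Of the 8 genes other than Csf2ra, edgeR and DESeq2 each called 0 in every comparison. The background rate of calls by edgeR was 0.731% of 13823 genes tested for inhibitor over vehicle, 3.95% for inhibitor over sham and 0.304% for vehicle over sham, so a list of 8 with no call is near the background. Of the 101 genes called for inhibitor over vehicle, 97 were lower and 4 higher with the inhibitor, so the direction of Csf2ra was that of most calls. In each comparison 1 of the 8 had an unadjusted edgeR p under 0.05, which was Kit against either group with the inhibitor, and Csf1 for vehicle over sham. Over all genes 13.4% had such a p for inhibitor over vehicle, 17.96% for inhibitor over sham and 8.28% for vehicle over sham, so 1 of 8 is near the background. Inhibitor libraries lay wholly below vehicle libraries for 2 of 8 (Csf1 and Kit; 10.4% of all genes) and below sham libraries for 1 of 8 (Kit; 11.6% of all genes). Vehicle libraries lay wholly above sham libraries for 2 of 8 (Csf2rb and Csf1; 8.20% of all genes). The log2 fold changes of all 8 were negative for inhibitor over vehicle, with a median of -0.42 beside 0.04 over all genes, of which 53.8% were positive. For inhibitor over sham 5 of 8 were positive, with a median of 0.10 beside 0.03 over all genes, and for vehicle over sham 7 of 8 were positive, with a median of 0.48 beside -0.02 over all genes.

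**Figure D3:**
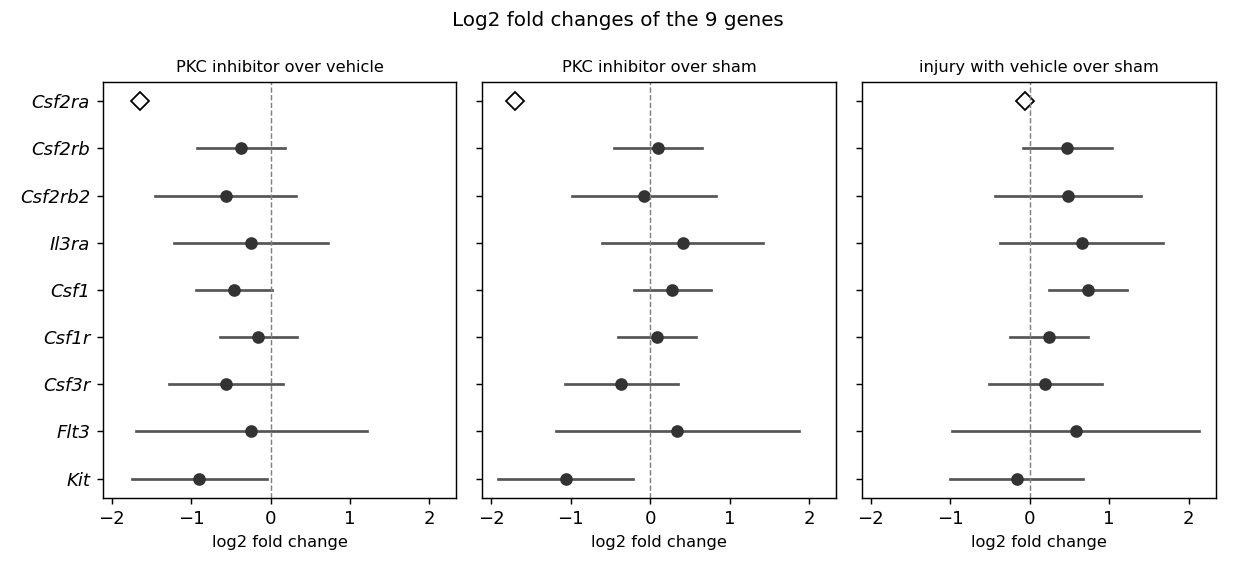
Log2 fold changes (horizontal axis) of the 9 genes for inhibitor over vehicle, inhibitor over sham and vehicle over sham. Filled points are edgeR estimates with 95% intervals; open diamonds mark Csf2ra, which was chosen for its pattern and has no interval. Csf2ra stands at -1.65 and -1.70 with the inhibitor and at -0.05 for vehicle over sham, and the intervals that leave out 0 are those of Kit in both inhibitor panels and of Csf1 in the injury panel.

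Levels of different genes were compared per kilobase of exon, with all annotated exons of a gene counted in its length. Over all 9 libraries the order of mean normalised counts per kilobase was Csf2ra (131), Csf3r (93.1), Csf1r (42.9), Csf1 (33.6), Csf2rb (24.99), Csf2rb2 (13.5), Il3ra (8.12), Kit (2.76) and Flt3 (1.60). In vehicle knees Csf2ra had 166 ± 22 per kilobase and Csf3r 109.7 ± 18.99, and in sham knees Csf2ra had 173 ± 53.6 and Csf3r 95.7 ± 11.6 (SD, n = 3 each). In both groups the libraries of Csf2ra lay above those of Csf3r. In inhibitor knees Csf3r had 74.0 ± 41.2 per kilobase, Csf2ra 53.6 ± 22.7 and Csf1r 42.2 ± 5.35 (SD, n = 3 each), and the libraries of these 3 genes overlapped. Csf1r and Csf1 overlapped in level in the inhibitor and vehicle groups, where neither can be placed above the other, and Csf1 and Csf2rb overlapped in the inhibitor and sham groups. The beta chains overlapped each other, and Csf2rb2 overlapped Il3ra, in the inhibitor and sham groups but not in vehicle knees. Kit and Flt3 overlapped in level in inhibitor knees, at 1.52 to 1.89 and 0.946 to 2.73 per kilobase, but not in vehicle knees (2.67 to 3.67 and 0.807 to 2.43) or sham knees (3.001 to 3.81 and 0.753 to 1.83).

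The genes whose log2 CPM (counts scaled to library size) ran most like Csf2ra over the 9 libraries were Gripap1 (Pearson r = 0.988), Tspoap1 (r = 0.987), Clspn (r = 0.986), Unc93b1 (r = 0.977) and Rab44 (r = 0.976), out of 11284 genes compared. Clspn encodes a protein of the DNA replication checkpoint, and Unc93b1 carries Toll-like receptors to endosomes. Among the receptors and their ligand, Kit stood closest to Csf2ra (r = 0.885, rank 233), followed by Csf3r (r = 0.683, rank 1106), Csf2rb (r = 0.427, rank 2342) and Csf2rb2 (r = 0.371, rank 2643), then by Csf1 (r = 0.263, rank 3249), Csf1r (r = 0.163, rank 3812), Flt3 (r = 0.147, rank 3910) and Il3ra (r = 0.128, rank 4048). The profile of Csf1r was most like those of Slc43a2 (r = 0.918), Rab27b (r = 0.901), Fn1 (r = 0.898), Tprkb (r = 0.897) and Ctsz (r = 0.897), a lysosomal protease gene. These correlations are descriptions: the 9 points share group, library and depth, and the inhibitor libraries set much of the spread of Csf2ra.

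The genes of GM-CSF, G-CSF, IL-3 and interleukin 5 had few or no counts, unlike Csf1. Csf2, the gene of GM-CSF, had 0, 5 and 0 raw counts in inhibitor libraries 1 to 3 and 0 in each vehicle and sham library. Csf3, the gene of G-CSF, had 0, 6 and 0 raw counts in the inhibitor libraries, 0, 0 and 1 in the vehicle libraries and 0 in each sham library. Il3 and Il5 had 0 counts in all 9 libraries, which allows up to 3 counts and covers counting error only. Il5ra, the alpha chain for interleukin 5, had 0, 12 and 0 raw counts with the inhibitor, 3, 5 and 0 with vehicle and 1, 0 and 0 in sham knees. These 5 genes did not pass the filter on low counts, and at this depth no difference between groups could be read from them.

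Of the 8 ligands and partner chains listed, Kitl, Flt3l and Il34 were tested and 0 were called in any comparison. Kitl, the gene of stem cell factor, had 309, 72.1 and 61.0 normalised counts with the inhibitor, 83.1, 79.6 and 79.1 with vehicle and 74.4, 74.7 and 58.5 in sham knees. Inhibitor library 1 alone was far above the rest, and the log2 fold change of Kitl was 0.88 for inhibitor over vehicle (SE 0.56, adjusted p = 0.541). Flt3l, the ligand of Flt3, had 18.8, 10.5 and 16.9 normalised counts with the inhibitor, 19.9, 32.1 and 49.1 with vehicle and 14.0, 26.2 and 39.6 in sham knees. Its inhibitor libraries lay below the vehicle libraries but overlapped the sham libraries, at -1.16 on the log2 scale against vehicle (SE 0.49, adjusted p = 0.314). Flt3l overlaps the model Gm45713 on the same strand, so its counts are uncertain.

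Downstream of the receptors, 22 signalling genes (JAK and STAT factors, SOCS inhibitors, adaptors and phosphatases) were all tested and 0 were called in any comparison. Their median log2 fold change was -0.05 for inhibitor over vehicle, 0.07 for inhibitor over sham and 0.06 for vehicle over sham. Socs3, a feedback inhibitor of G-CSF receptor signalling, had 301 ± 97.2 normalised counts with vehicle and 73.9 ± 6.98 in sham knees (SD, n = 3 each), which is 2.02 on the log2 scale (SE 0.56; adjusted p = 0.289). Socs1, an inhibitor of JAK kinases, had 30.6 ± 18.5 with vehicle and 8.04 ± 1.44 in sham knees, which is 1.91 on the log2 scale (SE 0.66; adjusted p = 0.350). Stat5a, a STAT factor that GM-CSF activates, had 81.5 ± 22.1 normalised counts with the inhibitor and 127 ± 10.2 with vehicle, which is -0.64 on the log2 scale (SE 0.25; adjusted p = 0.260). Inpp5d, a lipid phosphatase that restrains growth factor signals in blood cells, had 273 ± 112 with the inhibitor and 405 ± 41.3 with vehicle, which is -0.56 on the log2 scale (SE 0.26; adjusted p = 0.351).

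Of 12 transcription factors of the myeloid lineage, all tested, 1 was called, for inhibitor over sham, where 3.95% of all genes were called. Myb, a factor of immature blood cells, fell to 96.6 ± 62.3 normalised counts in inhibitor knees, against 322 ± 86.8 in sham knees (SD, n = 3 each), with -1.76 as log2 fold change (SE 0.40, adjusted p = 0.0378). Against the vehicle mean of 234 ± 26.1 its log2 fold change was -1.30 (SE 0.40, adjusted p = 0.184). In injured knees with vehicle, Cebpb, a factor of emergency granulocyte formation, had 195 ± 69.5 normalised counts, against 66.0 ± 16.6 in sham knees, which is 1.57 on the log2 scale (SE 0.35; adjusted p = 0.120). The list's median log2 fold change was 0.06 for inhibitor over vehicle, 0.08 for inhibitor over sham and -0.07 for vehicle over sham.

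Marker lists were read for the cells that carry these receptors. Among 13 neutrophil markers, 0 were called for inhibitor over vehicle (median log2 fold change -0.18), 7 fell for inhibitor over sham (median -1.24) and 1, Ltf, fell for vehicle over sham (median -0.89), where 0.0217% of all genes were called lower. The 7 included Ltf, a granule iron-binding protein (log2 fold change -2.11, adjusted p = 0.00216), Mpo, the myeloperoxidase gene (-1.70, adjusted p = 0.00623), the granule protease gene Prtn3 (-1.69, adjusted p = 0.00744) and Camp, an antimicrobial peptide gene (-1.44, adjusted p = 0.0105), beside 2.68% of all genes called lower. Summed over the list, neutrophil markers had 9071 to 19209 normalised counts with the inhibitor, 9087 to 11605 with vehicle and 16637 to 22855 in sham knees. The vehicle sums lay below the sham sums, and Csf3r and Csf2ra each overlapped between these groups. The part of neutrophils in the values of both receptors was not tested. Inhibitor library 2 had the highest neutrophil sum and the highest Csf3r, Csf2rb and Csf2rb2 of its group, while its Csf2ra, at 148, lay between those of the other inhibitor libraries.

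Monocyte and macrophage markers, 12 in all, had 2727 to 4252 summed normalised counts with the inhibitor, 2417 to 3697 with vehicle and 2389 to 2961 in sham knees, with overlap of all groups. A single gene of that list was called: Cd68, a lysosomal protein of macrophages, rose to 207 ± 58.7 normalised counts with the inhibitor, against 92.2 ± 23.04 in sham knees (SD, n = 3 each), a log2 fold change of 1.17 (adjusted p = 0.0236), beside 1.27% of all genes called higher. The list's median log2 fold change was 0.15 for inhibitor over vehicle, 0.60 for inhibitor over sham and 0.28 for vehicle over sham. The part of these markers in the lower Csf2ra was not tested.

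Dendritic cell markers, a list of 7 that includes Flt3, summed to 69.7 to 118 normalised counts with the inhibitor, 95.1 to 120.0 with vehicle and 96.2 to 102 in sham knees. Xcr1 was at 0 in all libraries. Clec9a, a receptor of cross-presenting dendritic cells, had 2 raw counts in all inhibitor libraries together, 17 in those with vehicle and 26 in sham libraries, and was called lower for inhibitor over sham (adjusted p = 0.0334), as 1 of 5 dendritic cell markers tested beside 2.68% of all genes; its adjusted p was 0.134 for inhibitor over vehicle. Mast cell markers, 8 in all, summed to 133.5 to 354 normalised counts with the inhibitor, 103 to 234 with vehicle and 174 to 267 in sham knees, with Fcer1a at 0 in all libraries, and 0 of the 2 tested, Mcpt4 and Hdc, were called. Progenitor markers summed to 134 to 502 with the inhibitor, 147 to 229 with vehicle and 143 to 253 in sham knees, and 0 of the 6 tested were called. The groups overlapped in both the mast cell and the progenitor sums. The progenitor sum of 502 was that of inhibitor library 1 alone, against 176 and 134 in inhibitor libraries 2 and 3. The part of mast cells and progenitors in the values of Kit was not tested.

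The summed B lineage markers were lowest in inhibitor knees, and so were the summed cartilage, bone and synovium markers. Csf2ra and Kit were lowest there too, but overlapped between vehicle and sham knees. The B lineage sum was 281 to 401 normalised counts with the inhibitor, 421 to 488.5 with vehicle and 558 to 615 in sham knees, without overlap of any groups. Of 7 B lineage markers tested, 3 fell for inhibitor over sham, where 2.68% of all genes were called lower, and 0 were called in either other comparison. They included Cd79a (log2 fold change -1.66, adjusted p = 0.0334) and Cd79b (-1.68, adjusted p = 0.0450), signalling chains of the B cell receptor. The part of B lineage cells in the values of Csf2ra and Kit was not tested.

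**Figure D4:**
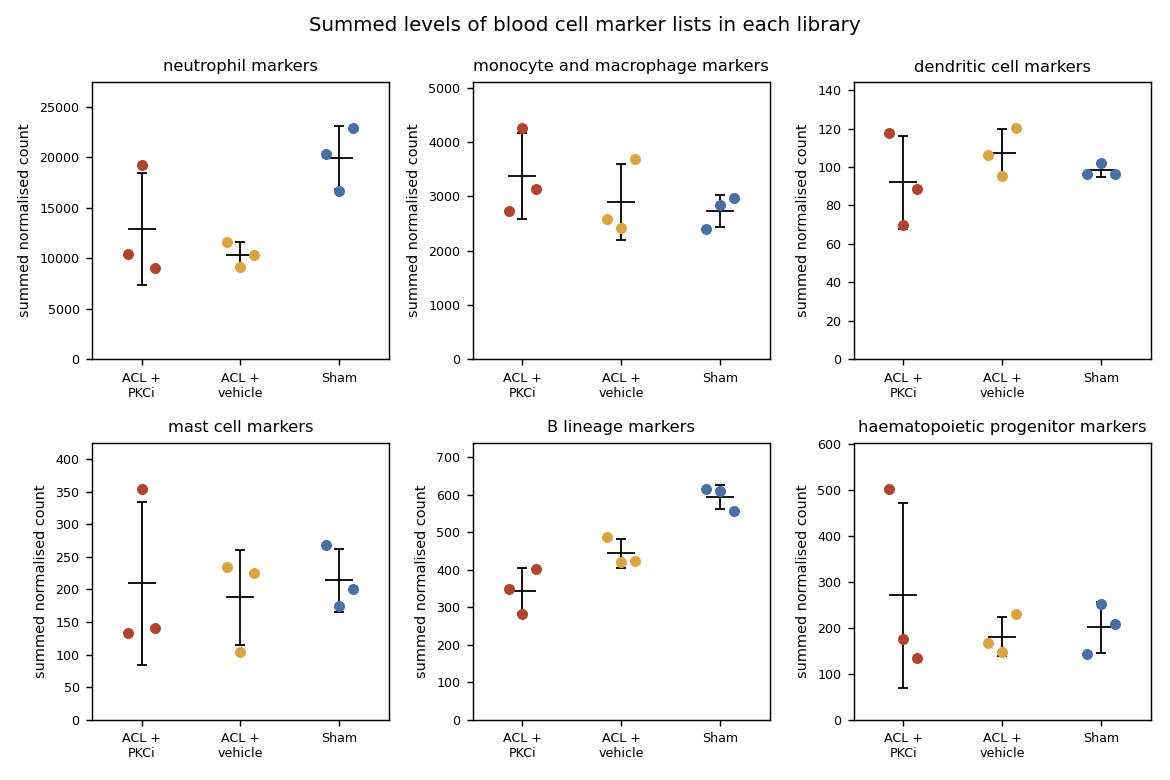
Summed normalised counts of 6 blood cell marker lists in each library of the inhibitor, vehicle and sham groups. Points are libraries 1 to 3 from left to right, the wide bar is the group mean and the error bar is 1 SD. The B lineage sums are ordered without overlap (281 to 401 with the inhibitor, 421 to 488.5 with vehicle, 558 to 615 in sham knees), and the monocyte and macrophage sums overlap between all groups.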

How the data were processed

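The deposited table holds raw read counts by gene symbol, and each column name matches a sample title. Read pairs were counted by the authors on the reverse strand over GENCODE M25 exons with featureCounts 2.0.1, per the file headers. Multi-mapping reads were counted in full at each place and overlapping reads for each gene. HISAT2 and mm10 are named in the submitters' processing notes. The 27 count columns of the other 2 sets of the series match no label and were not used. Sequence comparisons used GENCODE M21 transcripts on GRCm38.

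The counts were analysed here in R 4.3.3 (edgeR 4.0.16, DESeq2 1.42.0, limma 3.58.1), and tables, alignments and plots were made in Python 3.11.15 (Biopython 1.88, matplotlib 3.10.9, numpy 2.4.6, pandas 2.3.3). From 55291 genes, edgeR's filterByExpr (minimum count 10) kept 13823. A single quasi-likelihood fit with robust dispersions and TMM scaling took in all 9 libraries. Groups were compared by two-sided edgeR quasi-likelihood F tests with Benjamini-Hochberg adjustment over all genes tested (threshold 0.05). An SE equals the log2 fold change over the root of F. Normalised counts are counts brought to the mean effective library size, and log2 CPM used a prior count of 2. The fit was also run on simulated counts with the same spread in every group. That run does not show how the fit handles the uneven inhibitor libraries.

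The 9 genes, the marker and pathway lists and the naming rule were chosen with earlier results of these data known. Named were the 9 genes, all ligands and partner chains, of each other list the called genes (at most 4 a comparison by smallest p) or, where none was called, those with the smallest p, and the 5 genes most like Csf2ra and Csf1r. A gene of the marker lists is not reported here. Alternatives were DESeq2, other size factors, no filter, fits of the compared groups alone, a muscle covariate, a replicate block, and leaving out libraries.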

Additional observations from a re-analysis of the deposited data

How the results depend on the processing

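The number of genes called moved with the processing. Against 101 for inhibitor over vehicle, 546 for inhibitor over sham and 42 for vehicle over sham, DESeq2 called 355, 885 and 155. No filter gave 554, 1056 and 262, the compared groups alone 3, 198 and 291, a muscle covariate 352, 1173 and 195, and leaving out inhibitor libraries 1 and 2 together 20, 174 and 301. With 1 library left out at a time the counts ran from 0 to 256, 141 to 841 and 1 to 234; edgeR's 0 came without vehicle library 2, where 1301 genes had an unadjusted p under 0.05. Deviations of same-numbered libraries correlated at -0.24 to 0.07, and those of differently numbered libraries at -0.17 to 0.20. This check cannot tell whether the numbers pair samples. With a replicate block the counts were 103, 420 and 24. Other size factors, from relative log expression or from counts without the 7SL genes, kept all 3 counts within 1.5 times.

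Of the 8 genes other than Csf2ra, 0 were called in each comparison and in every fit without 1 library. The count was 1 for vehicle over sham with the compared groups alone (Csf1, adjusted p = 0.0439) and without inhibitor libraries 1 and 2 (Csf1, log2 fold change 0.75, adjusted p = 0.0442), and 1 for inhibitor over sham with the muscle covariate (Csf3r). Of 407 alternative fold changes of these 8 genes, 390 kept their direction and side of the threshold. The sign turned in 14 of them and in that of Csf2ra for vehicle over sham. Without inhibitor libraries 1 and 2, Il3ra (0.29) and Flt3 (0.53) turned for inhibitor over vehicle. With the muscle covariate, Csf2rb turned for inhibitor over sham (-0.15) and Csf3r for vehicle over sham (-0.23). The rest turned when 1 library was left out, over which log2 fold changes ran from -0.32 to 0.090 for Csf1r (turned without vehicle library 3) and from -0.73 to 0.069 for Flt3 (inhibitor library 2) in inhibitor over vehicle. In inhibitor over sham they ran from -0.21 to 0.35 for Csf2rb (sham 2, inhibitor 2), -0.63 to 0.50 for Csf2rb2 (sham 3, inhibitor 1, inhibitor 3), -0.033 to 0.25 for Csf1r (sham 1) and -0.16 to 0.66 for Flt3 (inhibitor 3). In vehicle over sham they ran from -0.0025 to 0.42 for Csf1r (vehicle 3) and from -0.26 to 0.18 for Csf2ra (sham 3, vehicle 1). Over all alternatives the log2 fold change of Csf2ra ran from -1.99 to -1.11 for inhibitor over vehicle and from -2.04 to -1.15 for inhibitor over sham, and that of Kit from -1.02 to -0.71 (adjusted p from 0.302 to 0.802) and from -1.17 to -0.86 (0.135 to 0.621). The cause of these moves was not tested. Depth limits Flt3, Il3ra and Kit most.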

Other observations

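Marker RNA of other cell types of the joint was also read in the groups in which the receptors were compared. Cartilage, bone and synovium markers summed to 23856 to 53686 normalised counts with the inhibitor, 73425 to 84142 with vehicle and 71391 to 130095 in sham knees, so that the inhibitor libraries lay below all others. Among these 8 markers, Col2a1, the main cartilage collagen (log2 fold change -2.67, adjusted p = 0.0366), and Comp, a cartilage matrix protein (-1.25, adjusted p = 0.0412), fell for inhibitor over sham, where 2.68% of all genes were called lower. For inhibitor over vehicle all 8 had negative values (median -1.10, beside 0.04 over all genes, of which 53.8% were positive) and 0 were called. Osteoclast markers, from cells that need Csf1r, summed to 730.5 to 1713 with the inhibitor, 1116 to 1911 with vehicle and 1912 to 2985 in sham knees. Of 4 osteoclast markers tested, Mmp9, which is also on the neutrophil list, fell for inhibitor over sham (log2 fold change -1.06, adjusted p = 0.0449), beside 2.68% of all genes called lower.

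Erythroid markers summed to 1340 to 3150 normalised counts with the inhibitor, 2622 to 5309 with vehicle and 2804 to 4636 in sham knees, and 0 of 5 tested were called. The smallest p values of that list belonged to Epb42 (log2 fold change -1.15, adjusted p = 0.0598) and Klf1 (-0.95, adjusted p = 0.169), both for inhibitor over sham. Skeletal muscle markers summed to 3694 to 46835 with the inhibitor, 8185 to 13210 with vehicle and 14590 to 36883 in sham knees, and 0 of 10 were called. All 10 were negative for vehicle over sham (median -1.17, beside -0.02 over all genes). All 10 were positive for inhibitor over vehicle (median 0.80, beside 0.04 over all genes), where inhibitor library 1 alone had the sum of 46835. Mb, the myoglobin gene, had a log2 fold change of -2.10 for vehicle over sham (edgeR adjusted p = 0.638). Eosinophil and basophil markers summed to 263 to 529 with the inhibitor, 267 to 750.0 with vehicle and 401 to 641 in sham knees, and 0 of 4 tested were called. Of the progenitor markers, Procr had a log2 fold change of 1.15 for inhibitor over sham (adjusted p = 0.276) and Cd34 one of 1.26 for inhibitor over vehicle (adjusted p = 0.490). Their part in the receptor values was not tested.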
